A study of Mus musculus with 15 samples.

Results

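Reactive astrocyte genes were followed here in the brain of young and old male mice fed ad libitum (AL) or every other day (EOD). They were 10 genes chosen by name (Gfap, Vim, Serpina3n, Cd44, Lcn2, Osmr, Steap4, Aspg, Cp and S1pr3), out of the 43629 genes listed in the count files, by a rule that uses no measured value, although earlier results of these data were known when they were chosen. All 10 were matched by symbol and all 10 passed the filter on low counts, which left 15864 genes to be tested. The study asked with RNA-seq of whole brain whether EOD feeding changes how the transcriptome differs between old and young mice. It used 15 wildtype C57BL/6J males in 4 groups, namely young AL (3 months of age, n = 4), old AL (24 months of age, n = 4), young EOD (3 months of age, n = 3) and old EOD (24 months of age, n = 4). EOD mice, named IF in some labels, had been placed on alternating days with and without food in young adulthood, so that the young EOD mice had been on this diet briefly and the old EOD mice for most of their lives. Each library came from the whole brain of 1 mouse of 1 sex and 1 strain, so that all cell types and regions were mixed.

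Astrocytes are the glial cells that take up glutamate and potassium, support synapses and line blood vessels. After injury, inflammation or protein deposition they become reactive, which means that they thicken their intermediate filament skeleton and express surface receptors, acute phase proteins and protease inhibitors that are low in the resting state. Signals through the interleukin-6 receptor family and the transcription factor STAT3 are a main route to this state. Gfap, the astrocyte intermediate filament protein, is the gene most used to mark it.

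Total counts ran from 5198748 to 13610729 per mouse (median 9886766). Young AL mouse 3 stood apart from the other mice, with a median correlation of 0.957 against 0.98 to 0.987 for the rest, and it had the fewest genes with a count (17280). Calls that were lost or gained in the fit without it are given beside the result. The file headers placed the mice in 3 sequencing lanes, each of which held mice of at least 3 groups. Levels are given in CPM, the count of a gene for each 1000000 counts of its library, after edgeR's TMM scaling of the libraries to each other. A gene was called when its Benjamini-Hochberg false discovery rate (FDR) over all 15864 genes in edgeR's quasi-likelihood test was under 0.1.

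The promoters of 4 members are printed. Gfap, Vim and Serpina3n were the members called between old and young mice under both diets, and Steap4 shares a motif with Gfap. Steap4 was not called, but it had only 0 to 11 counts per mouse. Its 95% interval with age in AL mice, -1.40 to 1.34, held the Gfap estimate of 1.22, so no contrast between them is shown. Each run holds 250 bases before and 20 bases after a RefSeq start site, read 5′ to 3′ on the strand of the gene, in build GRCm38.p6. Capitals mark matches to TTCNNNGAA, the core of a STAT site, or to TATAAA, an element of many core promoters, on either strand.
Gfap (chr11:102897181-102897450, minus strand): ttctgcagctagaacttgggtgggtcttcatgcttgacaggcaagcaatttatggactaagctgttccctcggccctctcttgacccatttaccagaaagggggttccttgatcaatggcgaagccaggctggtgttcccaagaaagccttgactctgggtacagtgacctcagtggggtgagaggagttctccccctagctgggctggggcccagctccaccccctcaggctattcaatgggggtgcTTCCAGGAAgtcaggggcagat
Vim (chr2:13574061-13574330, plus strand): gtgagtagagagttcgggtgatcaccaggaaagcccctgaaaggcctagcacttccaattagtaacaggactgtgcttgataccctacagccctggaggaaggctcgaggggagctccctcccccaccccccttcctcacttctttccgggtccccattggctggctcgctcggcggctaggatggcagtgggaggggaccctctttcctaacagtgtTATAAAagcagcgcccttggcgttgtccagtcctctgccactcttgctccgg
Serpina3n (chr12:104406458-104406727, plus strand): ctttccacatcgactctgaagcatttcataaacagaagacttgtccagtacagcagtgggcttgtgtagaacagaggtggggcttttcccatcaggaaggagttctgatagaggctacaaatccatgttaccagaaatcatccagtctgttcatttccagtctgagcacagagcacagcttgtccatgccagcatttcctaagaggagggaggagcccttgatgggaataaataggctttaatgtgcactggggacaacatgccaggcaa
Steap4 (chr5:7960222-7960491, plus strand): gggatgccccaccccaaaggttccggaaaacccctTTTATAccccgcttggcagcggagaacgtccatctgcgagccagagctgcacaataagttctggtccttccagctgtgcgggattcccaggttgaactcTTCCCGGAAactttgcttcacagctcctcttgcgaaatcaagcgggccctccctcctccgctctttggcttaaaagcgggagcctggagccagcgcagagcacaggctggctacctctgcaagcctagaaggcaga
The Gfap match lies across the start site, from position -2 to 7, and the Steap4 match lies from -116 to -108. These were the only members with TTCNNNGAA among 11 member windows (Cp has 2), and 7.58% of all 32851 windows held it. TATAAA was found in Vim, Cp and Steap4 and in 12.9% of all windows. TGANTCA, the core of an AP-1 site, was found in Cp and Osmr and in 7.23% of all windows. No match of these 3 motifs overlapped a match of another in the runs printed. A match is a stretch of letters and not a measured binding site.

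Between old and young AL mice, Gfap, Vim, Serpina3n and Lcn2 were higher in the old brain, and the other 6 members did not pass the test. Lcn2 was kept by the filter on low counts only through old mice in which it was high, so that its call adds nothing to the count of members. The other 3 called members compare with 0.946% of all genes tested that were called higher. The values below follow the roles of the members, first the filament proteins, then the secreted proteins, then the receptors and enzymes. Old mice and young mice of each diet were compared in 1 model fitted to all 4 groups.

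Gfap (ENSMUSG00000020932, chromosome 11, 102887336 to 102900912, minus strand) was the most abundant member per length of exon. Its mean in young AL mice was 39.9 CPM per kilobase of exon, followed by Serpina3n at 8.85 and Vim at 6.55, and Lcn2 was lowest at 0.0926. In CPM Gfap stood at 174, 152, 173 and 174 CPM in the young AL mice and at 131, 162 and 153 CPM in the young EOD mice. In the old mice it stood at 396, 390, 403 and 381 CPM under AL and at 283, 321, 345 and 324 CPM under EOD. Every old mouse lay above every young mouse, and every old EOD mouse lay below every old AL mouse. The difference between old and young was a log2 fold change of 1.22 (SE 0.0759, edgeR FDR 1.71e-09) in AL mice, which is 2.33-fold, and 1.10 (SE 0.084, edgeR FDR 1.26e-07) in EOD mice. Within the lanes the log2 ratio of old over young AL mice was 1.28, 1.19 and 1.13, and for EOD mice it was 1.11 and 1.03 in the lanes that held both ages. In bulk tissue more cells of a type and more RNA per cell cannot be told apart. A gene on the opposite strand, Gm26668, overlaps Gfap, and 891 counts were assigned to it over the 15 mice against 36983 for Gfap.

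Vim (ENSMUSG00000026728, chromosome 2, 13573927 to 13582826, plus strand) codes for vimentin, which assembles with Gfap protein in astrocyte filaments and is also a filament of endothelial cells, fibroblasts and ependymal cells. It stood at 31.0, 28.7, 30.0 and 34.6 CPM in young AL mice and at 24.6, 32.2 and 26.5 CPM in young EOD mice. Old AL mice had 50.0, 50.0, 55.0 and 45.8 CPM, and old EOD mice had 42.6, 43.5, 46.3 and 49.1 CPM. No old mouse fell to the level of a young mouse, while the old groups of the 2 diets overlapped. The log2 fold change with age was 0.69 (SE 0.097, edgeR FDR 0.000367) in AL mice and 0.72 (SE 0.109, edgeR FDR 0.00212) in EOD mice. Within the lanes it was 0.75, 0.81 and 0.40 in AL mice.

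Serpina3n (ENSMUSG00000021091, chromosome 12, 104406729 to 104414329, plus strand) codes for a secreted serine protease inhibitor of the acute phase. Its values were 16.4, 20.3, 19.6 and 16.7 CPM in young AL mice and 17.2, 20.6 and 21.0 CPM in young EOD mice. They were 56.3, 49.9, 43.9 and 59.5 CPM in old AL mice and 37.8, 39.6, 38.7 and 46.5 CPM in old EOD mice. The ages were fully separated, and the highest old EOD mouse lay above the lowest old AL mouse. With age the log2 fold change was 1.52 (SE 0.114, edgeR FDR 4.63e-08) in AL mice, or 2.87-fold, and 1.06 (SE 0.128, edgeR FDR 0.000145) in EOD mice, or 2.08-fold. Within the lanes it was 1.62, 1.25 and 1.83 in AL mice and 1.13 and 0.93 in EOD mice. Serpina3n belongs to a cluster of near-identical serpin genes, so that its count is uncertain where reads are shared. Of 15 other serpins listed from this cluster and related genes, 1 passed the low-count filter, Serpina3g, with at most 20 counts in any mouse against 120 to 708 for Serpina3n. Old over young AL mice it had a log2 fold change of 1.71 (SE 0.599, edgeR FDR 0.309).

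Lcn2 (ENSMUSG00000026822, chromosome 2, 32384633 to 32388252, minus strand) codes for lipocalin 2, a secreted protein that binds iron-loaded bacterial siderophores and is made by reactive astrocytes and in neutrophil granules. It had 3, 3, 0 and 4 counts in the young AL mice, 1, 0 and 3 counts in the young EOD mice and 15, 5, 1 and 9 counts in the old EOD mice. The old AL mice had 8, 5, 64 and 106 counts, which were 0.995, 0.656, 12.1 and 8.91 CPM. The high level was thus that of old AL mice 3 and 4, and old AL mice 1 and 2 lay within the range of the old EOD mice (0.0921 to 1.26 CPM). All 4 old AL mice lay above all young AL mice. The fitted log2 fold change with age was 4.53 (SE 0.87, edgeR FDR 0.00929) in AL mice and 1.96 (95% interval -0.78 to 4.69, edgeR FDR 0.975) in EOD mice.

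Lcn2 passed the low-count filter through 3 mice, those with 15, 64 and 106 counts, and its difference in AL mice rests on few mice. Without old AL mouse 3 the estimate was 3.94 (edgeR FDR 0.0441), and without young AL mouse 3 it was 4.06 (edgeR FDR 0.0259). When old AL mouse 4, old EOD mouse 1, or both high old AL mice were left out, or when the old and young AL mice were fitted alone, Lcn2 no longer passed the filter and had no test. Within the lanes the log2 ratio of old over young AL mice was 1.64 in the first and 4.73 in the third.

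Markers of other cells moved in the mice with high Lcn2. The summed level of 9 neutrophil markers was 25.3 CPM in old AL mouse 3, against 1.74 to 3.81 CPM in the other old AL mice and 0.921 to 4.42 CPM in the old EOD mice. Of the 9 markers Ly6g had no count in any mouse, and S100a9 had at most 49 counts in an old AL mouse and 16 in an old EOD mouse. The neutrophil sum was 2.27 CPM in old AL mouse 4, whose summed level of 9 red blood cell and pituitary genes was 1090 CPM against 43.3 to 66.4 CPM in the other old AL mice. This sum pools both kinds of gene. In the old AL mice the red blood cell gene Alas2 ran from 2.89 to 6.59 CPM and the pituitary gene Cga from 0 to 49.8 CPM. Both levels were small beside the sum of 1090 CPM. Of the 8 genes of this list that were tested, 2 were called higher with age in AL mice, against 0.946% of all genes. Without young AL mouse 3 the number was 1, against 0.931% of all genes. In young AL mice the neutrophil sum ran from 0 to 1.47 CPM and in young EOD mice from 0.344 to 1.71 CPM. The part of these cells in the Lcn2 values was not tested.

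**Figure D1:**
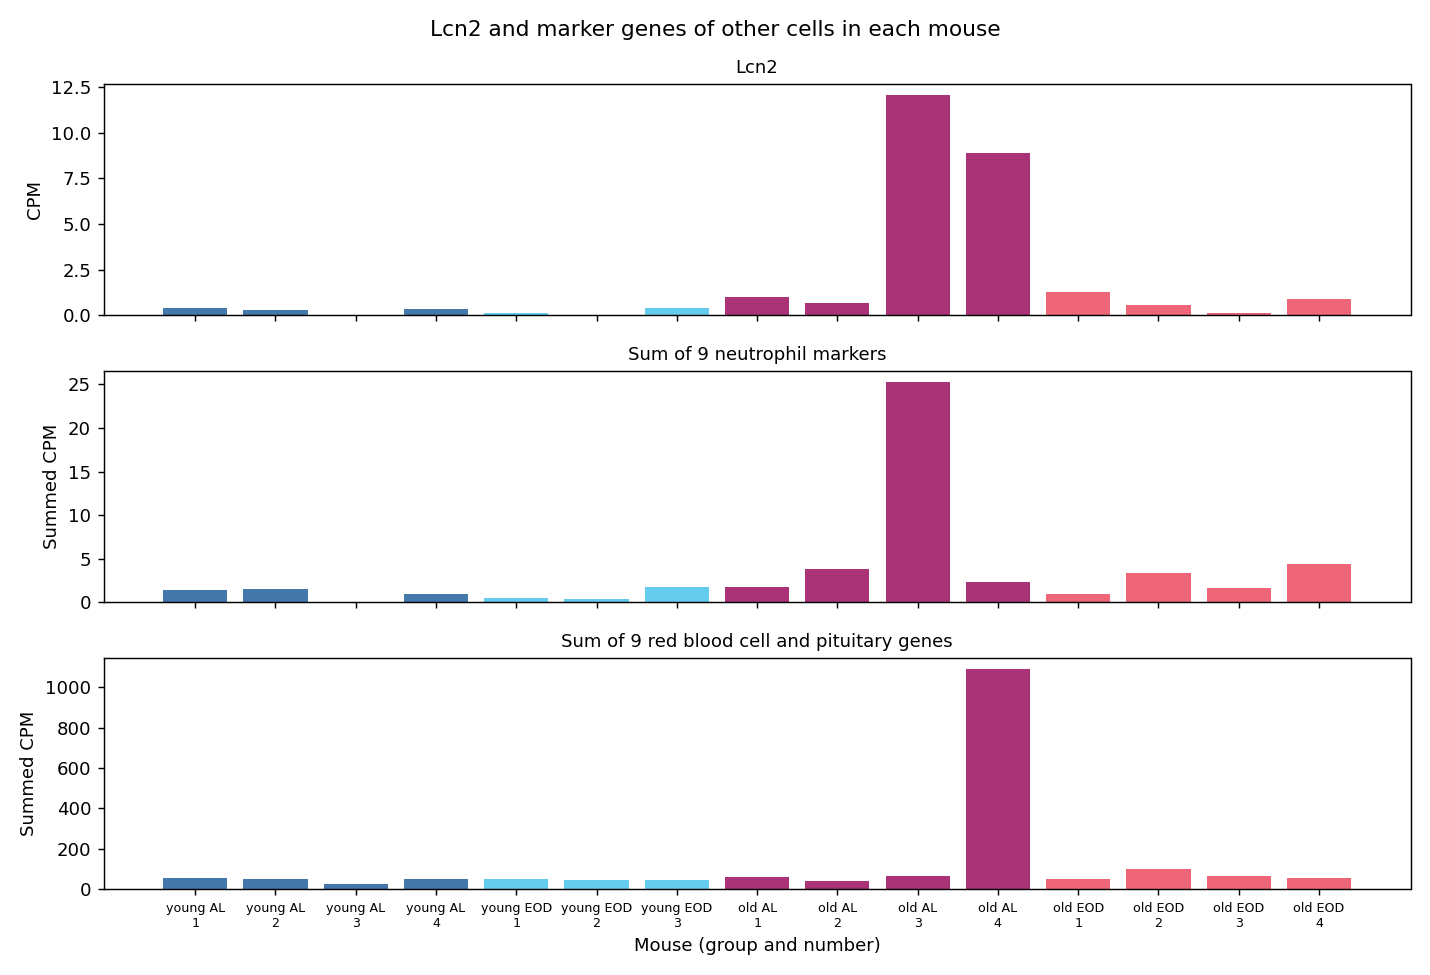
Bars give, for each of the 15 mice on the horizontal axis, the level of Lcn2 (CPM, top), the summed level of 9 neutrophil markers (CPM, middle) and the summed level of 9 red blood cell and pituitary genes (CPM, bottom), coloured by group. Lcn2 was 12.1 CPM in old AL mouse 3 and 8.91 CPM in old AL mouse 4, the neutrophil sum was 25.3 CPM in mouse 3, and the bottom sum was 1090 CPM in mouse 4.

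Cp (ENSMUSG00000003617, chromosome 3, 19957054 to 20009145, plus strand) codes for ceruloplasmin, the copper ferroxidase that astrocytes carry at their surface and use in iron export. Its group means were 33.0 ± 4.05 CPM in young AL mice (SD, n = 4), 29.4 ± 2.8 CPM in young EOD mice (SD, n = 3), 37.0 ± 3.82 CPM in old AL mice (SD, n = 4) and 33.3 ± 1.87 CPM in old EOD mice (SD, n = 4). Old and young mice overlapped under each diet. For Cp the log2 fold change with age was 0.16 (95% interval -0.05 to 0.38, edgeR FDR 0.662) in AL mice and 0.18 (95% interval -0.06 to 0.42, edgeR FDR 0.975) in EOD mice. Hps3, on the opposite strand, overlaps Cp and was assigned 3015 counts against 4726 for Cp.

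Among the surface receptors, Osmr (ENSMUSG00000022146, chromosome 15, 6813577 to 6874969, minus strand) codes for the oncostatin M receptor, which signals through gp130 to STAT3. It stood at 4.82, 3.48, 3.47 and 5.44 CPM in young AL mice and at 3.80, 3.44 and 3.29 CPM in young EOD mice. Old AL mice had 7.83, 6.95, 6.43 and 6.22 CPM, and old EOD mice had 7.87, 6.03, 3.96 and 6.06 CPM. The old mice lay above the young mice of their own diet, the margin being smallest for old EOD mouse 3. Its log2 fold change with age was 0.68 (SE 0.218, edgeR FDR 0.241) in AL mice and 0.76 (SE 0.25, edgeR FDR 0.563) in EOD mice, which did not pass the test in either diet. Averaged over diets it was 0.72 (SE 0.166), and this passed (edgeR FDR 0.0273). Within the lanes it was 0.92, 0.95 and 0.19 in AL mice.

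Cd44 (ENSMUSG00000005087, chromosome 2, 102811141 to 102901665, minus strand) codes for the hyaluronan receptor. It stood at 5.66, 5.77, 5.59 and 5.19 CPM in young AL mice and at 3.80, 4.47 and 4.86 CPM in young EOD mice. Old AL mice had 8.95, 6.69, 9.08 and 5.72 CPM, and old EOD mice had 5.36, 7.06, 6.72 and 4.71 CPM. Old AL mouse 4 lay within the young AL range, and the old EOD mice reached down into the young EOD range. With age Cd44 had a log2 fold change of 0.44 (SE 0.192, edgeR FDR 0.468) in AL mice, 0.45 (SE 0.221, edgeR FDR 0.878) in EOD mice and 0.44 (SE 0.146, edgeR FDR 0.178) averaged over diets.

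S1pr3 (ENSMUSG00000067586, chromosome 13, 51408618 to 51422797, plus strand) codes for a receptor of sphingosine 1-phosphate. Its lowest value, 4.99 CPM, was that of young AL mouse 3, and all other mice had 8.31 to 13.1 CPM. In AL mice the log2 fold change with age was 0.037 (95% interval -0.40 to 0.47, edgeR FDR 0.977), and -0.19 (95% interval -0.49 to 0.12, edgeR FDR 0.907) without that mouse. In EOD mice it was -0.11 (95% interval -0.58 to 0.37, edgeR FDR 0.995). The sign in AL mice also turned without old AL mouse 4 (-0.028), so no direction is given.

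Steap4 (ENSMUSG00000012428, chromosome 5, 7960472 to 7982213, plus strand) codes for a metalloreductase of iron and copper, and Aspg (ENSMUSG00000037686, chromosome 12, 112106683 to 112127573, plus strand) for an asparaginase. Steap4 had 0 to 11 counts per mouse and Aspg 9 to 43, so that only large differences were detectable at this depth. Steap4 group means were between 0.617 CPM in old EOD mice and 0.791 CPM in young AL mice. Aspg group means were between 2.15 CPM in young EOD mice and 3.04 CPM in old AL mice. Old and young mice overlapped under each diet for both genes. Under AL the estimate for old over young was -0.027 for Steap4 (95% interval -1.40 to 1.34, edgeR FDR 0.994) and 0.26 for Aspg (95% interval -0.48 to 1.01, edgeR FDR 0.872). In EOD mice it was -0.23 for Steap4 (95% interval -1.77 to 1.31, edgeR FDR 0.995) and 0.16 for Aspg (95% interval -0.69 to 1.01, edgeR FDR 0.995). Without young AL mouse 3, which had no Steap4 count, Steap4 did not pass the low-count filter.

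**Figure D2:**
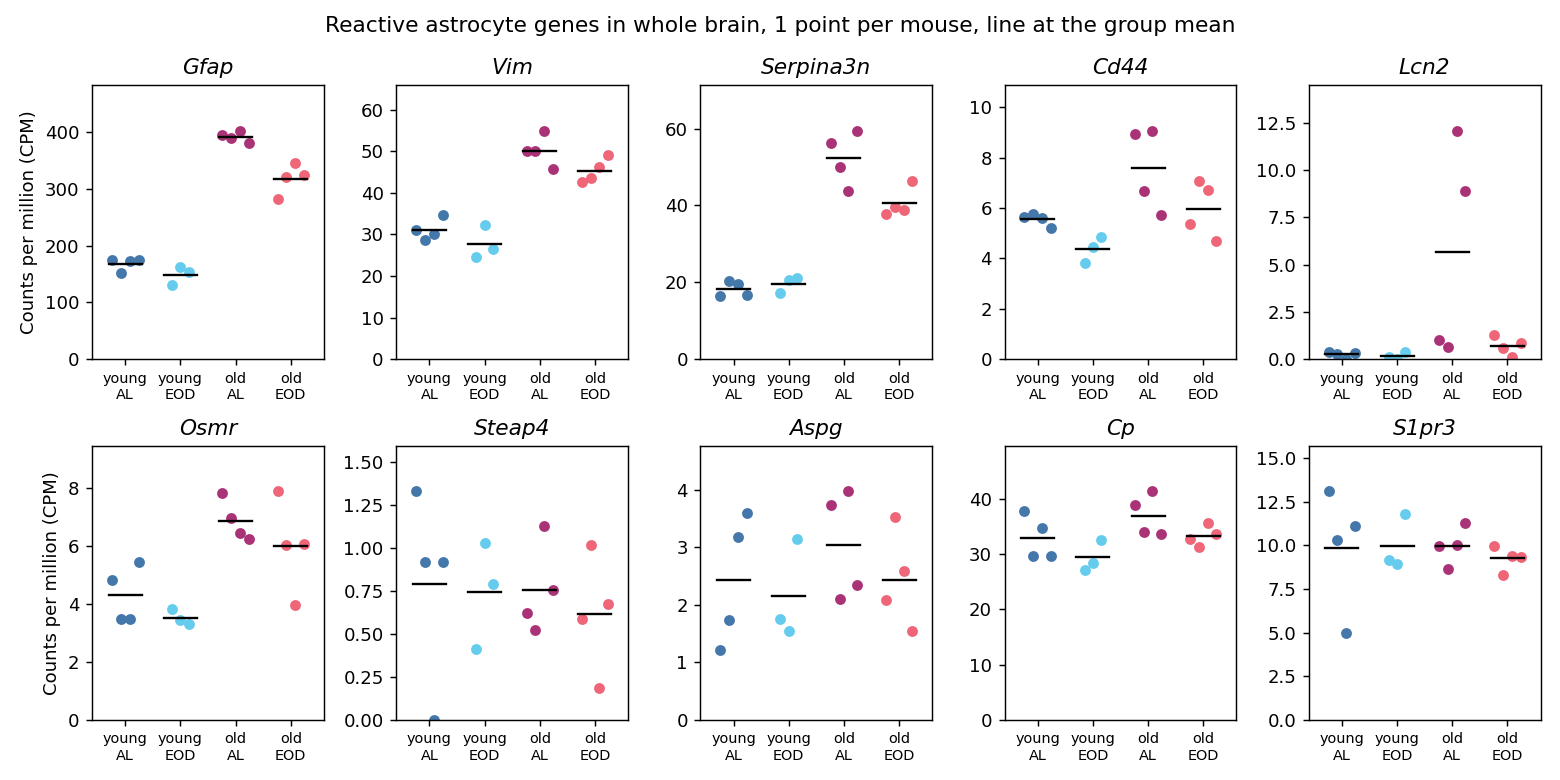
Each panel plots the level of 1 member (CPM, linear axis from 0) in every mouse by group, with a line at the group mean. The old mice lie above all young mice for Gfap (283 to 403 against 131 to 174 CPM), Vim and Serpina3n, and the ages overlap within each diet for Cd44, Steap4, Aspg, Cp and S1pr3.

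Counted over the members, Gfap, Vim, Serpina3n and Osmr were higher in every old AL mouse than in every young AL mouse. This held for 2.98% of all genes. Lcn2 was separated too, but it passed the low-count filter only through old mice. It is therefore left out of the numbers of separated and called members. The median log2 fold change of the 10 members, Lcn2 included, was 0.56, and that of all genes was -0.0096. In EOD mice 3 of 10 members (Gfap, Vim and Serpina3n) were called higher with age, against 0.258% of all genes, and 4 of 10 (with Osmr) were fully separated, against 4.75% of all genes. The median there, again with Lcn2, was 0.58, and that of all genes was -0.00036. Averaged over diets 4 of 10 members were called higher with Lcn2 left out, against 1.62% of all genes. Beside Osmr these were Gfap (log2 fold change 1.16, edgeR FDR 2.26e-11), Serpina3n (1.29, edgeR FDR 4.97e-09) and Vim (0.70, edgeR FDR 4.51e-06). Lcn2 also passed (3.24, edgeR FDR 0.0339). Without young EOD mouse 1 the Lcn2 call was lost (3.08, edgeR FDR 0.118). For Steap4, Aspg, Cp and S1pr3 the estimates ran from -0.13 to 0.21. Without young AL mouse 3, 9 members were tested. Gfap, Vim and Serpina3n were again called under AL and under EOD, and with Osmr averaged over diets. Lcn2 was again called under AL and averaged over diets. The shares of all genes under AL, under EOD and averaged over diets were 0.931%, 0.421% and 1.91%.

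**Figure D3:**
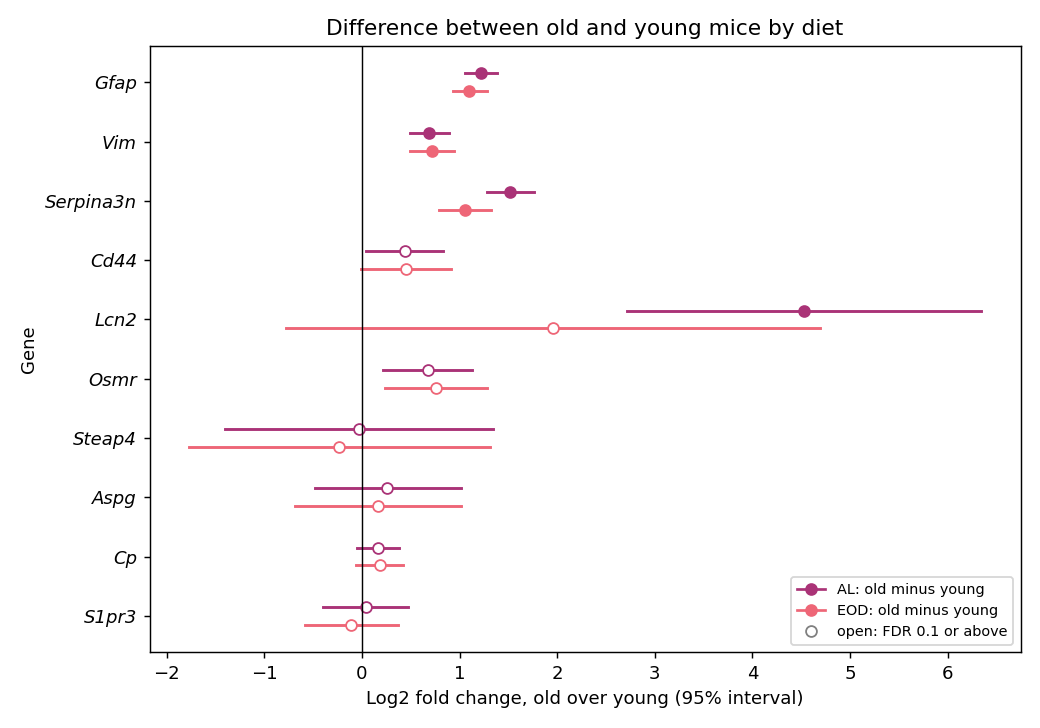
Points give the log2 fold change of old over young mice for each member, with its 95% interval, in AL and in EOD mice, filled where the FDR was under 0.1. Gfap (1.22 and 1.10), Vim (0.69 and 0.72) and Serpina3n (1.52 and 1.06) are filled under both diets, and Lcn2 (4.53) under AL alone, where a difference between the diets was not shown.

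EOD was compared with AL within each age to ask whether diet moved these genes. In old mice the estimate of every member other than Lcn2 was below 0. Lcn2 is not counted there, as it passed the low-count filter only through old mice in which it was high. The median of the 10 estimates, Lcn2 included, was -0.29. Of the 10 members 0 were called, as for all genes (percentage called 0). Estimates below 0 made up 49.2% of all genes, and the median over all genes was 0.0026. The members were measured in the same mice, so their estimates are not independent, and the old AL mice also enter the comparison of age in AL mice. At an unadjusted p under 0.05 were Gfap and Serpina3n, and 409 of 15864 genes. Lcn2 was under 0.05 as well and is again not counted. DESeq2 called 0 genes.

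Gfap was 393 ± 9.71 CPM in old AL mice and 318 ± 26.1 CPM in old EOD mice (SD, n = 4 each). The log2 fold change was -0.30 (95% interval -0.46 to -0.15, unadjusted p = 0.000561 and FDR 0.989 in edgeR's test). It was the 1 member of 10 whose old groups did not overlap, and 1.36% of all genes were likewise lower in every old EOD mouse. Within the 3 lanes the log2 ratio was -0.49, -0.31 and -0.19. Serpina3n was 52.4 ± 6.95 CPM in old AL and 40.6 ± 3.96 CPM in old EOD mice (SD, n = 4 each), a log2 fold change of -0.37 (95% interval -0.60 to -0.15, edgeR FDR 1), with -0.58, -0.24 and -0.48 within the lanes. Lcn2 had an estimate of -2.96 (95% interval -4.51 to -1.41, edgeR FDR 1), with 0.34, -3.49 and -4.22 within the lanes, so that its direction differed between lanes and followed old AL mice 3 and 4.

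The call depended on the filter. With every gene of at least 1 count kept in the fit, 2 members passed in old mice, Gfap (log2 fold change -0.31, edgeR FDR 0.0976) and Lcn2 (-2.97, edgeR FDR 4.36e-08), among 27 genes that passed in all. The smallest FDR over all genes in that fit was 1.62e-226, against 0.984 with the filter and 0.336 in DESeq2. The estimates of both members hardly moved, and what changed their FDR was not tested. Because these calls were absent with the filter and in DESeq2, they are not read as a difference between diets.

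For the remaining members the 95% intervals of the estimates in old mice, EOD over AL, held 0. The estimates were -0.14 for Vim (95% interval -0.34 to 0.06), -0.34 for Cd44 (-0.74 to 0.06), -0.19 for Osmr (-0.64 to 0.25), -0.29 for Steap4 (-1.68 to 1.11), -0.30 for Aspg (-1.06 to 0.45), -0.14 for Cp (-0.36 to 0.07) and -0.11 for S1pr3 (-0.55 to 0.33). The edgeR FDR was 1 for each of these 7.

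In young mice, after a short time on the diet, 0 of 10 members were called (percentage of all genes called 0, with 657 genes and 1 member, Gfap, at an unadjusted p under 0.05). DESeq2 called 1 gene, which was no member. The log2 fold change, EOD over AL, was -0.18 for Gfap (95% interval -0.36 to -0.01), -0.17 for Vim (-0.40 to 0.06), 0.092 for Serpina3n (-0.18 to 0.37), -0.28 for Osmr (-0.81 to 0.25) and -0.16 for Cp (-0.40 to 0.08). Cd44 alone did not overlap between the young groups, with an estimate of -0.35 (-0.81 to 0.11), and 2.05% of all genes were lower in every young EOD mouse. Without young AL mouse 3 the interval of Gfap was -0.35 to 0.02, and 0 members were at an unadjusted p under 0.05. No fold is given for Lcn2, which had at most 4 counts in any young mouse.

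**Figure D4:**
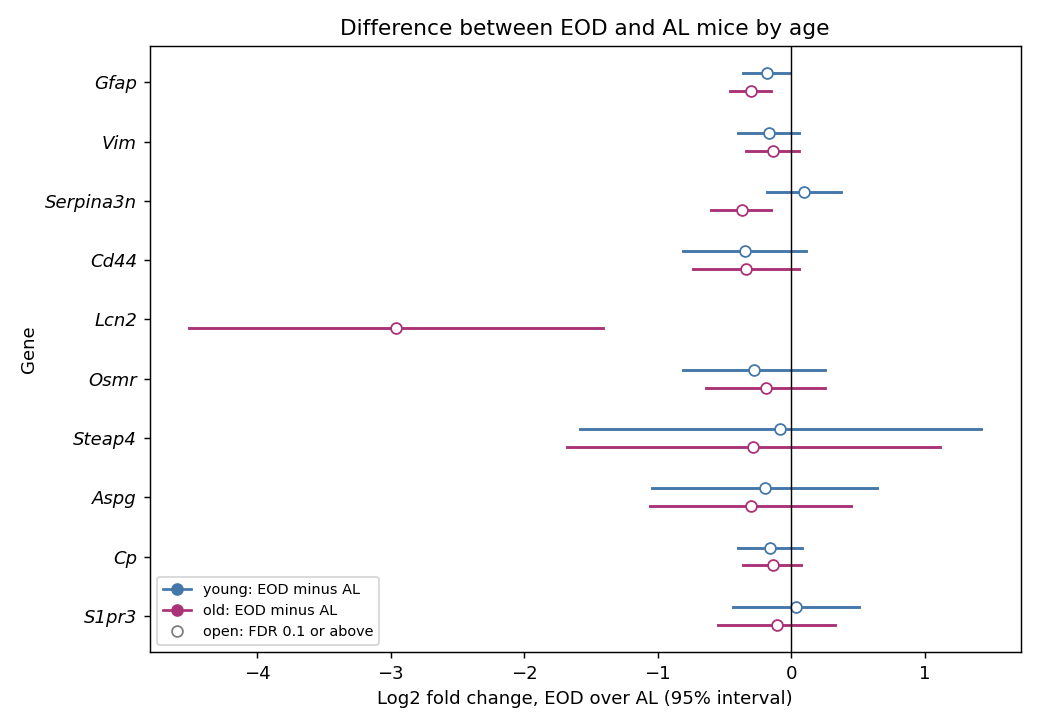
Points give the log2 fold change of EOD over AL mice for each member, with its 95% interval, in young and in old mice. All points are open because no member had an FDR under 0.1; the old estimates lie between -2.96 and -0.11, and the young Lcn2 estimate is left out for its low counts.

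Averaged over ages, 0 of 10 members were called (percentage of all genes called 0; 715 genes at an unadjusted p under 0.05, and 0 called by DESeq2). The smallest p of a member was that of Gfap, with a log2 fold change of -0.24 (95% interval -0.36 to -0.13, edgeR FDR 0.983). With every gene of at least 1 count kept its edgeR FDR was 0.0232, in a fit whose smallest FDR over all genes was 8.2e-48. Cd44 had -0.34 (-0.65 to -0.04) and Vim -0.16 (-0.31 to -0.01), both with an edgeR FDR of 0.983. The interaction of age and diet, which asks whether the difference with age was unequal between diets, also called 0 of 10 members (percentage of all genes called 0; 362 genes at an unadjusted p under 0.05, and 0 called by DESeq2). For Serpina3n it was -0.47 (95% interval -0.82 to -0.11, edgeR FDR 1), and for Gfap it was -0.12 (-0.35 to 0.11, edgeR FDR 1). The other members apart from Lcn2 had estimates from -0.20 to 0.09.

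Gfap was then set against genes that astrocytes express in the resting state. The log2 level of Gfap minus the mean log2 level of 18 homeostatic astrocyte genes, such as the glutamate transporter Slc1a2 and the water channel Aqp4, was computed in each mouse. It was -0.45, -0.60, -0.36 and -0.47 in young AL mice and -0.83, -0.58 and -0.70 in young EOD mice. It was 0.65, 0.71, 0.68 and 0.66 in old AL mice and 0.31, 0.43, 0.55 and 0.43 in old EOD mice. The ages were separated under both diets, and the old EOD mice all lay below the old AL mice.

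The difference between old and young was 1.15 in AL mice (n = 4 and 4, two-sided exact permutation p = 0.0286, adjusted p = 0.0571 over 4 comparisons) and 1.14 in EOD mice (n = 4 and 3, exact permutation p = 0.0571, adjusted p = 0.0762). Between diets it was -0.24 in old mice (exact permutation p = 0.0286, adjusted p = 0.0571). For young mice the diets differed by -0.23 (exact permutation p = 0.114, also after adjustment). The smallest p that these designs allow is 0.0286 for 4 against 4 mice and 0.0571 for 4 against 3. After adjustment none could pass 0.05 in these designs, so that outcome was fixed in advance.

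**Figure D5:**
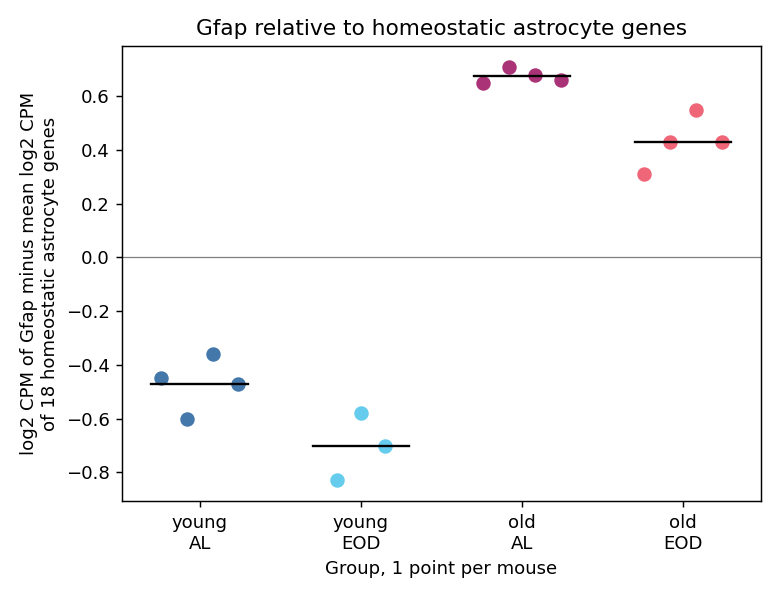
The vertical axis is the log2 CPM of Gfap minus the mean log2 CPM of 18 homeostatic astrocyte genes, with 1 point per mouse and a line at each group mean. The old AL mice lie between 0.65 and 0.71, the old EOD mice between 0.31 and 0.55 and all young mice at -0.36 or below.

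The homeostatic genes themselves had a median log2 fold change with age of 0.06 in AL mice and -0.01 in EOD mice. Of the 18, 1 was called in AL mice and 0 in EOD mice. It was S100b, a calcium-binding protein of astrocytes, which rose by a log2 fold change of 0.34 (SE 0.0782, edgeR FDR 0.0389). Their summed level ran from 8820 to 9296 CPM in young and 9197 to 9744 CPM in old AL mice, and from 9271 to 9673 CPM in young and 8839 to 9633 CPM in old EOD mice. The ranges thus overlapped between the ages within each diet, and no gene of the 18 was without counts in a group.

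Other genes of reactive astrocytes were read from published lists. Of 3 further pan-reactive genes, Hspb1 alone had enough counts, with a log2 fold change of 1.01 (SE 0.497, edgeR FDR 0.532) in AL mice, and 0.64 without young AL mouse 3. Timp1 and Cxcl10 had at most 12 counts in any mouse. Of 11 genes from the list for inflammatory challenge, 2 were called with age in AL mice. These were H2-D1, a class I histocompatibility gene with near-identical relatives, with 0.94 (SE 0.151, edgeR FDR 0.00181), and the interferon-induced GTPase Gbp2, with 1.25 (SE 0.264, edgeR FDR 0.0207). H2-D1 alone was called in EOD mice, with 0.85 (SE 0.168, edgeR FDR 0.0282). Averaged over diets 4 of the 11 were called, the others being the immunoproteasome subunit Psmb8 with 0.93 (edgeR FDR 0.027) and Ggta1 with 0.66 (edgeR FDR 0.0939), which was not called without young AL mouse 3 (0.56, edgeR FDR 0.101). H2-D1, Gbp2 and Psmb8 are also expressed by microglia and endothelial cells. Of 12 genes from the list for ischaemia, 9 were tested and 0 were called in AL or EOD mice, with medians of 0.25 and 0.22. The median in AL mice was -0.02 without young AL mouse 3, so that no direction is given for it. Averaged over diets 2 of them passed, Cd109 with 0.65 (edgeR FDR 0.051) and Cd14, a lipopolysaccharide co-receptor that is also a myeloid gene, with 0.96 (edgeR FDR 0.0902). The median of all genes with age was -0.0096 in AL and -0.00036 in EOD mice, and 0.946% and 0.258% of all genes were called higher. Averaged over diets 1.62% of all genes were called higher, and 1.91% without young AL mouse 3.

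The route that Osmr belongs to was low in ligands. Of 18 genes of the interleukin-6 family, gp130 and STAT3 signalling, 12 were tested and 0 were called with age in AL or in EOD mice, with medians of 0.09 and 0.08. The ligands Osm, Il6 and Cntf had at most 5 counts in any mouse. Stat3 had a log2 fold change of 0.22 in AL mice (edgeR FDR 0.345) and 0.23 in EOD mice (edgeR FDR 0.761), and 0.22 (SE 0.0603, edgeR FDR 0.0692) averaged over diets, where it passed. Among 11 other intermediate filament and linker genes, 1 was called, Synm, which codes for the filament protein synemin, with 0.43 (SE 0.102, edgeR FDR 0.0496) in AL mice. In EOD mice Synm had -0.11 (edgeR FDR 0.995), and its interaction of age and diet was -0.53 (SE 0.149, edgeR FDR 1).

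Partners of the other members were followed in the same way. Of 14 iron and copper genes related to Cp, Steap4 and Lcn2, 13 were tested. With age 2 were called higher in AL mice and 0 in EOD mice, where 0.946% and 0.258% of all genes were called higher. The 2 were transferrin (Trf), with 0.64 (SE 0.111, edgeR FDR 0.00387), and the ferritin heavy chain (Fth1), with 0.37 (SE 0.081, edgeR FDR 0.0278). Both were also called averaged over diets, Trf with 0.55 (edgeR FDR 0.000425) and Fth1 with 0.37 (edgeR FDR 0.000955), against 1.62% of all genes. In EOD mice Fth1 had 0.38 (edgeR FDR 0.114), and it was called there without young AL mouse 3 (0.38, edgeR FDR 0.0797). The transferrin receptor Tfrc passed in the other direction averaged over diets, with -0.54 (SE 0.129, edgeR FDR 0.0372). Of 12 Cd44 ligands, cytoskeletal linkers and hyaluronan enzymes, 11 were tested and 2 were called higher in AL mice, the linkers moesin (Msn), with 0.67 (SE 0.1, edgeR FDR 0.000825), and ezrin (Ezr), with 0.36 (SE 0.083, edgeR FDR 0.0449). The share of all genes called higher in AL mice was 0.946%. In the fit without young AL mouse 3, 1 of 10 was called, against 0.931% of all genes, and Ezr was lost (0.32, edgeR FDR 0.115). Spp1, the Cd44 ligand osteopontin, passed averaged over diets with 0.54 (edgeR FDR 0.0521). Of 9 genes of sphingosine 1-phosphate receptors and metabolism, 8 were tested and 0 were called, the smallest p being that of the lyase Sgpl1 with 0.22 (edgeR FDR 0.178) averaged over diets.

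The genes closest to the members in pattern were sought over all 15 mice among 13985 genes. The measure was the root mean square difference of log2 levels, each gene centred on its own mean. The 5 closest to Gfap were Lag3 (0.143), Serpina3n (0.201), the lysosomal protease cathepsin S Ctss (0.222), the complement gene C1qa (0.224) and Mpeg1 (0.231). The 5 closest to Serpina3n were Gfap (0.201), Lag3 (0.223), Ctss (0.28), Tyrobp (0.283) and the leukocyte phosphatase Ptprc (0.294). Apart from Gfap and Serpina3n these are genes of microglia or other immune cells. Lag3 had 4.52, 3.72, 11.2 and 8.51 CPM as the means of the young mice under AL and EOD and of the old mice under AL and EOD, and C1qa had 25.2, 22.7, 53.8 and 40.4 CPM.

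Markers of other cells were read in the same mice. The summed level of 10 microglia markers was 389 to 444 CPM in young and 489 to 562 CPM in old AL mice, and 382 to 411 CPM in young and 465 to 528 CPM in old EOD mice. It was thus higher in the old mice of each diet. The median log2 fold change of the 10 markers with age was 0.20 in AL mice (0.37 without young AL mouse 3) and 0.25 in EOD mice. Between the diets the old mice overlapped, with medians of 505 CPM under AL and 514 CPM under EOD. Of these 10 markers 2 were called higher with age under AL, 2 under EOD and 4 in the average of the diets. The shares of all genes called higher were 0.946%, 0.258% and 1.62%. Without young AL mouse 3 the counts were 3, 2 and 6, and the shares of all genes were 0.931%, 0.421% and 1.91%. The complement gene C1qa was among those called in AL mice (1.10, SE 0.129, edgeR FDR 5.03e-05). Among 7 oligodendrocyte markers Mbp alone was called in AL mice (0.39, SE 0.0925, edgeR FDR 0.0515). That call was lost without young AL mouse 3 (0.31, edgeR FDR 0.156). Mbp was also called averaged over diets (0.29, edgeR FDR 0.0346), where 1 of the 7 markers was called without young AL mouse 3 as well. Among 8 endothelial markers Itm2a alone was called, in the other direction (-0.45, SE 0.101, edgeR FDR 0.036). Of 9 fibroblast and meningeal, 10 choroid plexus, 7 ependymal and 8 neuronal markers 0 were called with age in AL mice. The part of these cells in the values of the members was not tested.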

How the data were processed

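RNA of whole brain was sequenced from 15 mice in 4 groups, which were taken from the sample labels. The authors aligned reads with STAR to GRCm38 and deposited raw counts per gene, made with featureCounts 1.5.0-p1 per the file headers, reverse-stranded, so that reads of opposite strands were assigned apart. Single-end reads of the study are described, and the header shows a paired-end option. The members and the gene lists were chosen with earlier results of these data known.

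Symbols were matched from the Ensembl identifiers (42462 of 43629 genes had one). In R 4.3.3, edgeR 4.0.16 fitted these counts (filterByExpr, TMM, and a quasi-likelihood test of the 4 group means over all 15 mice), with Benjamini-Hochberg adjustment over 15864 genes and an FDR threshold of 0.1. Standard errors were derived from the estimate and its F value. For the Gfap ratio a prior count of 2 entered log2 CPM, and exact permutation tests were two-sided (scipy 1.17.1). The scripts were tested on simulated data. Total counts of 5198748 to 13610729 limit genes with few counts, and intervals cover the spread between these mice.

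Named genes were the 10 members in every comparison. Of each further list, the genes past FDR 0.1 in any of 7 comparisons (at most the 4 with the smallest p) could be named, or else the gene with the smallest p. The 5 genes nearest to Gfap and to Serpina3n by root mean square difference were also named. Genes named for having too few counts to be tested (Timp1, Cxcl10, Osm, Il6 and Cntf) and the overlapping genes were chosen after their values were seen. Alternatives were RLE size factors, no filter or at least 10 counts in every mouse, DESeq2 1.42.0, FDR 0.05, the replicate number or the lane as a term, fits of 2 groups alone, and each mouse left out. Leaving out old AL mice 3 and 4 together was chosen after seeing the data. Proteins were not analysed here, and 1 marker gene's own result is not reported here.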

Additional observations from a re-analysis of the deposited data

Results flagged for a closer look

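Of 33 sets of values in groups of 4 mice (the 10 members and the ratio of Gfap to homeostatic genes in 3 groups) that were examined for a mouse far from the others, 1 stood out by Dixon's criterion, which chance gives for about 1 in 20 sets. In young AL mice Gfap was 152 CPM in mouse 2, against 173 to 174 CPM in the other 3. Without this mouse Gfap was still called between old and young AL mice (edgeR FDR 2.34e-08).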

How the results depend on the processing

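The number of members called, with Lcn2 included, was within 1.5 times the reported number in 163 of 165 alternative values. There was 1 value for each setting and comparison. Many belong to the diet comparisons and the interaction, where the reported number is 0 and a further 0 is scored as the same. The exceptions came from keeping every gene of at least 1 count, where 2 members passed between old EOD and old AL mice and 1 member averaged over ages; the cause was not tested. With at least 10 counts in every mouse Lcn2 was not tested, and 3 members were called with age in AL mice and 4 averaged over diets. The sign turned for members that were not called. For Steap4 with age in AL mice it was 0.037 with the replicate block, 0.018 with the lane as a term and -0.22 to 0.31 with each mouse left out, for S1pr3 -0.19 to 0.20 with each mouse left out and -0.069 without old AL mice 3 and 4. With each mouse left out, age in EOD mice gave -0.57 to 0.045 for Steap4, -0.058 to 0.54 for Aspg and -0.17 to 0.034 for S1pr3. Steap4 between old EOD and old AL mice was 0.073 without old AL mice 3 and 4. The ratio of Gfap to homeostatic genes kept its direction in all 46 alternatives, and no p of these designs could pass 0.05 after adjustment.

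Counts over all genes moved more. With age in AL mice 173 genes were called, and 444 with every gene of at least 1 count, 86 with 2 groups alone, 102 without old AL mouse 3 and 72 without old AL mice 3 and 4. In EOD mice 46 were called, and 70 by DESeq2, 100 with every gene, 76 without young AL mouse 3, 24 without old EOD mouse 2 and 19, 21 and 20 without each young EOD mouse. Averaged over diets 365 were called, and 653 with every gene, 229 at FDR 0.05, 237 with the lane as a term, 183 without old AL mice 3 and 4 and 222 and 216 without young EOD mouse 1 or 2. The diet comparisons, with 0 calls, gave 26 (young), 27 (old), 65 (averaged) and 26 (interaction) with every gene, and the lane term gave 2 in old mice.

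The replicate numbers of the labels did not pair the mice. Of 21 pairs with the same number 2 had deviations correlated above 0.1 (range -0.113 to 0.113). With the replicate block 4, 3 and 5 members were called with age under AL, under EOD and averaged over diets, Lcn2 being among the 4 and the 5. In each diet comparison and the interaction 0 were called. The paired Gfap ratio differed by 1.15 and 1.13 with age in AL and EOD mice, and by -0.23 and -0.24 with diet in young and old mice. Low counts limit Lcn2, Steap4 and Aspg.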
